A study of Mus musculus with 12 samples.

Results

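The nuclear genes of oxidative phosphorylation were followed in oligodendrocyte precursor cells (OPCs) and cortical neurons, each from ctl and dKO (double knockout) animals. They were chosen by symbol: protein-coding genes that start with Nduf, Uqcr, Cox4 to Cox8 or Atp5, and Sdha, Sdhb, Sdhc and Sdhd. This rule found 95 of the 30165 genes in the OPC table and 93 of the 17918 genes in the neuron table. By their known place, 45 belong to complex I (7 core subunits, 30 accessory subunits and 8 assembly factors), 4 to complex II, 8 to complex III, 19 to complex IV and 17 to complex V, the ATP synthase. The remaining 2, Cox5b-ps and Ndufb11b, are further copies that the OPC table lists as protein-coding and to which no complex was given.

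The 12 RNA-seq libraries came from 4 groups of 3, and each library pooled cells of 2 mice. The dKO mice carried NG2-CreERT2 with floxed alleles of the L-type calcium channel genes Cacna1c (Cav1.2, exons 14 and 15) and Cacna1d (Cav1.3, exon 2). The tamoxifen that induces the Cre was injected intraperitoneally at 100 mg/kg on postnatal days 7 and 8. NG2 is expressed in OPCs and also in pericytes, and neurons are not the cells this Cre is meant for. The labels give the ctl mice as WT, and whether they carried the Cre or floxed alleles or received tamoxifen is not given in the sources used here, nor is the age at which the cells were sorted. Cortical OPCs were held back on magnetic beads coated for CD140, NG2 and O4. Neurons were the cells left over once those binding CD31, CD11b, ACSA-2 or O4 beads had been taken out.

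Oxidative phosphorylation is carried out by 5 complexes of the inner mitochondrial membrane. Complex I (NADH dehydrogenase) and complex II (succinate dehydrogenase) pass electrons to ubiquinone, complex III (the cytochrome bc1 complex) passes them to cytochrome c, and complex IV (cytochrome c oxidase) passes them to oxygen. Complexes I, III and IV pump protons, and the ATP synthase uses the resulting gradient to make ATP. Most subunits are encoded in the nucleus, while a small core of complexes I, III, IV and V is encoded in mitochondrial DNA. Neurons depend strongly on this pathway for ion pumping and synaptic transmission. Nuclear respiratory factor 1 (NRF1), GA-binding protein (GABP) and YY1 are known regulators of many of these nuclear genes.

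Letters that these factors are known to bind were searched on both strands of the 300 bases around each annotated start (250 before and 50 after). The RefSeq promoter table of GRCm38.p6 held 82 promoters of 77 of these genes and 32851 promoters in all. The NRF1 letters GCGCATGCG were found in 12.2% of the 82 promoters and in 1.75% of all promoters, the GABP letters CCGGAAGT in 6.1% and 3.89%, and the YY1 letters AAGATGGCG in 9.76% and 1.4%. At least 1 of these motifs was held by 26.8% of the promoters of the oxidative phosphorylation genes and by 6.69% of all promoters. The NRF1 letters overlap their own reverse complement by all but 1 base, so the 10 capitals printed for NRF1 hold a match on each strand. The following stretches are shown because they come from the 6 genes described singly here that held a match before the start. They were Cox6a1, with the highest level per effective length of all (chr5:115349081-115349150, minus strand), Ndufaf4, with the lowest level of complex I (chr4:24897940-24898009, plus strand), Atp5k, with the second smallest p in OPCs (chr5:108434410-108434479, minus strand), Ndufa11, with one of the smallest p in neurons (chr17:56717672-56717741, plus strand), Atp5g2, one of the paralogues for the c ring (chr15:102671050-102671119, minus strand), and Atp5j, with the highest level of complex V in neurons (chr16:84835026-84835094, minus strand). Capitals mark the motif, with 30 bases on either side, all from GRCm38.p6 and written along the strand of the gene.
Cox6a1: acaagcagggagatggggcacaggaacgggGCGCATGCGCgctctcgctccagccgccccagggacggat
Ndufaf4: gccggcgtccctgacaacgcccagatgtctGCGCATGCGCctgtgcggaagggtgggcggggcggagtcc
Atp5k: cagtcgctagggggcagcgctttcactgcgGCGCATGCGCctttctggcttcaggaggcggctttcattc
Ndufa11: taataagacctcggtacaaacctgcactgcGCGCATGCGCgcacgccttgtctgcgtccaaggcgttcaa
Atp5g2: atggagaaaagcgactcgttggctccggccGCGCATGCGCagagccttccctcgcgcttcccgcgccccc
Atp5j: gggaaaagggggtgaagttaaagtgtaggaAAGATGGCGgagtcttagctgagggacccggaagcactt
The marked letters ended 153 bases before the start in Cox6a1, 104 in Ndufaf4, 41 in Atp5k, 51 in Ndufa11, 33 in Atp5g2 and 80 in Atp5j. The same 10 NRF1 letters thus stood before the start of the gene with the highest level and of one with a very low level. A match is a description of the sequence, and no binding was measured.

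Total counts per library were between 14935963 and 19812274 for OPCs and between 15052901 and 16344585 for neurons. In OPCs the targeted Cacna1c had 373, 411 and 439 TMM-normalised counts in ctl and 252, 337 and 312 in dKO libraries (log2 fold change -0.44, adjusted p = 0.349 with edgeR's quasi-likelihood test), and Cacna1d had 251, 191 and 255 in ctl and 92.8, 153 and 232 in dKO libraries (-0.55, adjusted p = 0.531). These counts cover whole genes, with the exons that are not deleted. The marker genes of the labelled cell types were present in every group but were not the most abundant marker lists. The OPC libraries held summed normalised counts of 25407 to 48767 for 10 OPC markers, of 864782 to 1499854 for 10 oligodendrocyte markers and of 181506 to 420084 for 5 choroid plexus markers. The neuron libraries held 9459 to 22049 for 10 neuron markers, 184847 to 412939 for 10 endothelial markers and 78137 to 480844 for 5 choroid plexus markers. No marker was at 0 in every library. Fewer cells of a type and less RNA per cell cannot be told apart in such bulk libraries, and p-values here measure the spread between libraries of pooled mice.

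Transcripts of the oxidative phosphorylation genes were abundant in the libraries of both sorted fractions. Levels and shares given below for OPCs or neurons are those of libraries that also held markers of other cell types. Levels were set per length, as CPM (counts scaled to the library total) per kilobase of effective transcript length, a unit that allows genes of one table to be compared. In ctl OPCs the median over 92 genes was 96.8, with 44 genes above 100, and in ctl neurons it was 222, with 70 genes above 100. The highest gene was the same in both, Cox6a1, a subunit of complex IV, at 687 ± 3.9 (SD, n = 3) in OPCs and 1088 ± 74.3 in neurons. The lowest of the tested genes were Ndufaf4, an assembly factor of complex I, at 3.75 ± 0.88 in OPCs, and Cox6a2, the paralogue of Cox6a1 known from heart and muscle, at 1.95 ± 0.3 in neurons. The tables were counted in different ways, so levels of OPCs and neurons are given side by side and were not tested against each other. Over the 92 genes the order of levels was alike in both (Spearman's rho 0.875), a description over genes that share libraries and transcript lengths.

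By this measure complex V had the highest and complex I the lowest median level in both cell types. In ctl OPCs the medians were 68.8 for complex I, 81 for complex II, 80.2 for complex III, 108 for complex IV and 213 for complex V. In ctl neurons they were 151, 160, 252, 287 and 354 in the same order. Ranges within a complex were wide. Complex I ran in OPCs from Ndufaf4 to the accessory subunit Ndufa3 (470 ± 32.7), and in neurons from Ndufaf4 (12.3 ± 0.83) to the accessory subunit Ndufb9 (504 ± 4.41). Complex II was the most even: its 4 subunits lay between Sdhd (46.6 ± 4.18), a membrane anchor, and Sdha (102 ± 1.57), the flavoprotein, in OPCs, and between Sdha (135 ± 8.75) and the anchor Sdhc (184 ± 16.8) in neurons. In complex III, Uqcrq was lowest in both cell types (49.6 ± 2.61 in OPCs and 63.6 ± 5.43 in neurons), while Uqcr10 was highest in OPCs (251 ± 12.4) and Uqcrb in neurons (638 ± 82.3). In complex V the ends were Atp5o, the subunit that confers oligomycin sensitivity (68.4 ± 8.86), and the small membrane subunit Atp5md (422 ± 53.2) in OPCs, and the central stalk subunit Atp5d (101 ± 12.7) and the peripheral stalk subunit Atp5j (965 ± 63.2) in neurons. The level of a very short transcript rests on a small effective length, 106 bases for Ndufb1 and 128 for Atp5md, and is less certain. On the FPKM values the authors deposited for OPCs, which divide by another length, the order of genes differed (rho 0.68). The OPC medians were then 21.9 FPKM in complex I, 33.6 in complex II, 46.3 in complex III, 40.4 in complex IV and 34.3 in complex V, so complex I was still lowest but complex V was not highest. The ends of the complexes in OPCs changed as well: Ndufb11 (80.5 FPKM) stood above Ndufa3 (53.6) in complex I, Atp5a1 (148) far above Atp5md (19.5) in complex V, and Cox8a (293) level with Cox6a1 (292) in complex IV. The order of complexes and the named ends in OPCs therefore depend on the length used. The neuron levels use lengths from the neuron FPKM itself, so their order was not checked against another length.

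**Figure D1:**
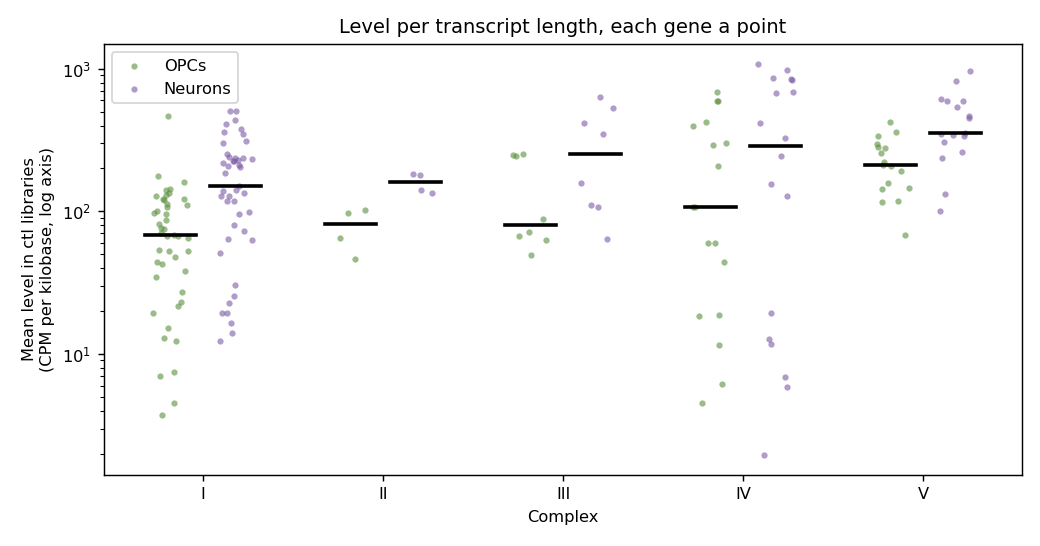
Mean level in the 3 ctl libraries, in CPM per kilobase on a log axis, by complex for OPCs (green) and neurons (violet). Each point is 1 gene and each black bar the median of the complex. With the lengths derived from the neuron table, the median in OPCs runs from 68.8 in complex I to 213 in complex V and in neurons from 151 to 354.

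Between dKO and ctl OPCs, the oxidative phosphorylation genes differed little. Of the 95 genes, 93 passed the filter on low counts (Cox7b2 and Ndufb11b did not). With edgeR's quasi-likelihood test, 1 of the 93 had an unadjusted p under 0.05, against 11.5% of all genes tested, and 0 had a Benjamini-Hochberg adjusted p under 0.05, against 0.00576% of all genes. DESeq2 also gave 1 and 0. The estimate was higher in dKO for 75 of the 93 genes, where 50.8% of all genes were higher. The median log2 fold change was 0.10, with the middle part of the genes (25th to 75th percentile) between 0.02 and 0.16, while the median of all genes was 0.01. The median standard error of a single gene was 0.14. Every dKO library lay above every ctl library for 3 genes, against 7.41% of all genes, and below for 2, against 9.55%, so a complete separation of the groups was no more frequent here than elsewhere in the table.

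The small upward shift of the OPC genes was not shared by the 3 dKO libraries. The median over the 93 genes of the log2 difference from the ctl mean was 0.07, -0.07 and 0.01 in ctl and 0.14, 0.23 and -0.12 in dKO libraries. The dKO libraries alone spanned 0.35, more than the difference of 0.08 between the group means. Library dKO 2 was the highest of all 6 for 57 genes, and dKO 3 was the lowest of all 6 for 48 genes and the lowest of the dKO libraries for 81. Without dKO 3, 83 genes were higher in dKO, against 48% of all genes, 8 had an unadjusted p under 0.05, against 11.2%, and the median log2 fold change was 0.18. Without dKO 2, 55 were higher, against 48.5% of all genes, 3 had such a p, against 13.3%, and the median was 0.02. The median thus stayed above 0 without any one library, and its size changed. With ctl 1 left out 4 genes had such a p, against 9.87%, while with ctl 2 left out 0 did, against 6.34%, and with dKO 1 left out 0 did, against 11.4%. Marker genes also differed between these libraries. The median deviation of 10 OPC markers was -0.44, 0.42 and 0.01 in ctl and 0.31, 1.13 and -0.25 in dKO libraries. Among dKO libraries it was highest in dKO 2 and lowest in dKO 3, as for the oxidative phosphorylation genes. Among ctl libraries it was lowest in ctl 1 and highest in ctl 2, the reverse of those genes. Of 10 microglia markers 10 were higher at an unadjusted p under 0.05, against 6.27% of all genes tested, and their summed counts of 5002, 4765 and 5716 in ctl and 14847, 6270 and 19249 in dKO libraries were highest in dKO 3 and, among dKO, lowest in dKO 2. Of 10 astrocyte markers 7 were higher at such a p, with sums of 24816, 33354 and 40316 in ctl and 39873, 100882 and 54003 in dKO libraries. Of 10 oligodendrocyte markers 8 were lower in dKO, 2 of them at an unadjusted p under 0.05, against 5.27% of all genes, with a median log2 fold change of -0.42 and deviations of -0.11, -0.49 and -0.66 in the dKO libraries. Neuron markers were higher for 9 of 10, 1 of them at such a p, with a median of 0.41 and deviations of 0.33, 0.77 and 0.19 in the dKO libraries, again highest in dKO 2 and lowest in dKO 3. Their summed counts were low, 1712, 2022 and 2092 in ctl and 2591, 2387 and 1921 in dKO libraries, and were highest in dKO 1. Endothelial markers were higher for 10 of 10, 0 of them at such a p, with a median of 0.38 and deviations of 0.48, -0.57 and 0.86, lowest in dKO 2. Choroid plexus markers were higher for 4 of 5, 0 of them at such a p, with a median of 0.09. With a library left out the OPC marker median ran from 0.05 (without dKO 2) to 0.77, the endothelial median from 0.04 (without dKO 3) to 0.68 and the choroid plexus median from -0.13 (without ctl 2) to 0.51. The neuron marker median ran from 0.21 (without dKO 2) to 0.51. The oligodendrocyte median was -0.58 without dKO 1, with 5 of 10 at such a p, against 11.4% of all genes. Without ctl 2 it was -0.26, with 0 at such a p, against 6.34%. The part of these cells in the values of the oxidative phosphorylation genes was not tested.

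**Figure D2:**
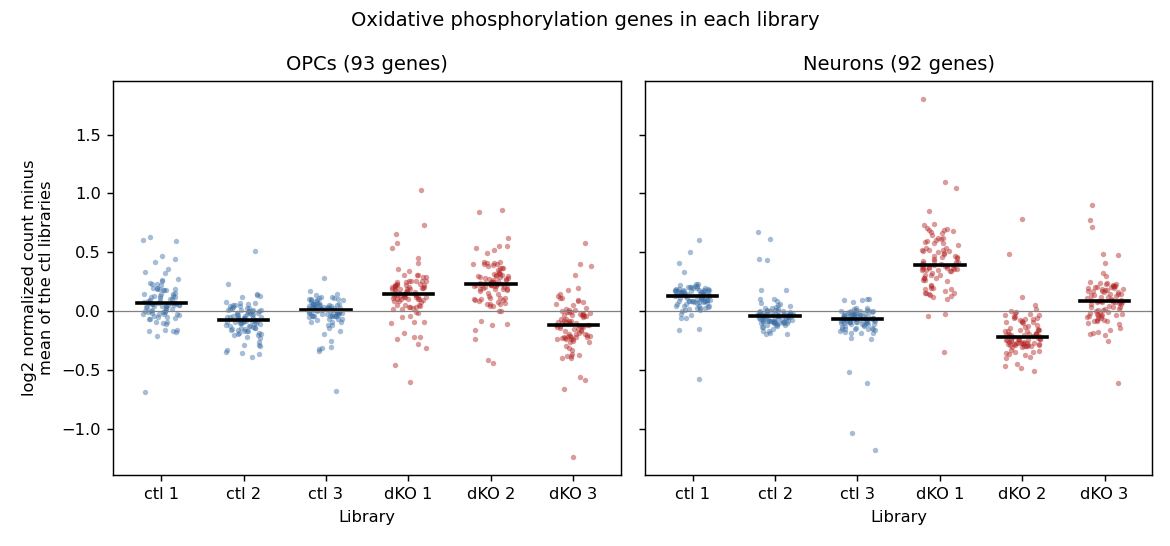
Log2 normalised count of each tested oxidative phosphorylation gene minus its mean over the ctl libraries, by library, for OPCs and neurons, with the median of each library as a bar. In OPCs the medians of the dKO libraries are 0.14, 0.23 and -0.12, and in neurons they are 0.39, -0.22 and 0.08, so the dKO libraries lie on both sides of the ctl mean.

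In OPCs every complex had a positive median, and the genes of complexes II and III were alike in direction. For complex I the median log2 fold change was 0.07, and 33 of 45 genes were higher in dKO. Its core subunits, which hold the flavin and iron-sulphur clusters, had a median of 0.07 (6 of 7 higher), its accessory subunits 0.05 (20 of 30 higher) and its assembly factors 0.18 (7 of 8 higher). All 4 genes of complex II were higher (median 0.09), as were all 8 of complex III (0.11). In complex IV 15 of 18 were higher (0.15), and in complex V 14 of 17 (0.12). The size of these medians rested on single libraries: without dKO 2 that of complex I was -0.00037, of complex III 0.03 and of complex IV 0.02, and without ctl 2 that of complex V was 0.04. Within the ATP synthase, the 5 genes of the F1 head and central stalk, the 4 of the peripheral stalk and the 3 of the c ring were all higher, with medians of 0.13, 0.08 and 0.14, whereas of the 5 small membrane accessory subunits 2 were higher and 3 lower. The only gene with an unadjusted p under 0.05 was in complex IV.

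**Figure D3:**
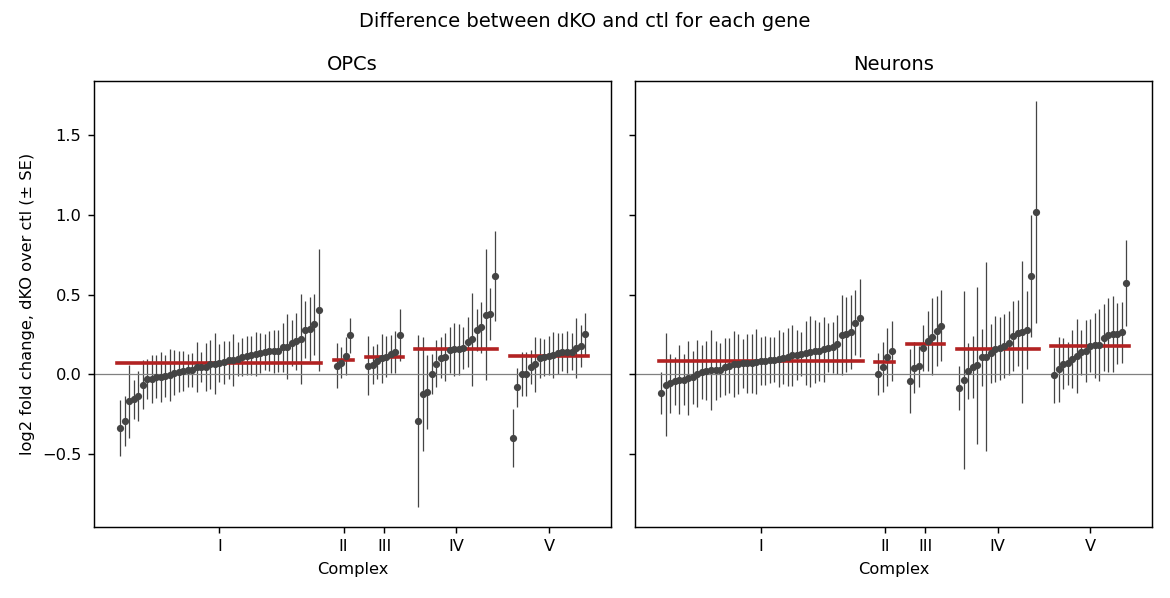
Log2 fold change of dKO over ctl for each tested gene, by complex, in OPCs and neurons, with its standard error as a vertical line and the median of each complex as a red bar. In OPCs the medians run from 0.07 in complex I to 0.15 in complex IV, in neurons from 0.08 in complex II to 0.19 in complex III, and estimates for single genes lie between -0.40 and 0.62 in OPCs and between -0.12 and 1.02 in neurons.

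The OPC gene with the smallest p was Cox7a2l (SCAF1), described as a factor that joins complexes III and IV into supercomplexes. Whether it does so in these mice was not measured. The gene lies on chromosome 17 at 83809347 to 83824759, minus strand, in the coordinates of the deposited table. It had 1632, 1468 and 1670 normalised counts in ctl and 2303, 2328 and 1560 in dKO libraries. Libraries dKO 1 and dKO 2 lay above all ctl libraries and dKO 3 lay within them. The log2 fold change was 0.38 (SE 0.16), with an unadjusted p of 0.047 and an adjusted p of 0.432 in edgeR's quasi-likelihood test. Atp5k, subunit e of the ATP synthase, which takes part in dimer formation, had 498, 482 and 343 in ctl and 317, 389 and 294 in dKO libraries. The groups overlapped through ctl 3 and dKO 2. The log2 fold change was -0.40 (SE 0.18), with an unadjusted p of 0.0554 and an adjusted p of 0.445 in the same test.

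A complete separation in the upward direction was seen for Sdhd, Cox4i2 and Cox5a. Sdhd, an anchor of complex II that helps bind ubiquinone, had 925, 773 and 867 counts in ctl and 1081, 1011 and 946 in dKO OPC libraries (log2 fold change 0.24, SE 0.11, adjusted p = 0.45). Cox5a, a subunit of complex IV on its matrix side, had 495, 429 and 515 in ctl and 654, 550 and 542 in dKO libraries (0.28, SE 0.13, adjusted p = 0.46). In both genes the gap between the groups was smaller than the range within either group. Cox4i2, the isoform of subunit 4 known from lung and from oxygen-sensing vascular cells, had 59.5, 45.3 and 53.3 in ctl and 108, 67.1 and 68.5 in dKO libraries (0.62, SE 0.28, adjusted p = 0.453), with dKO 1 well above the other two. The summed counts of 6 mural cell markers were 15289, 12079 and 17300 in ctl and 22041, 10744 and 22325 in dKO OPC libraries, and their part in the Cox4i2 value was not tested.

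In the opposite direction, all dKO libraries lay below all ctl libraries for Ndufb1 and Ndufaf2, both of complex I. Ndufb1, a small accessory subunit of the membrane arm, had 369, 305 and 304 counts in ctl and 267, 300 and 205 in dKO libraries (log2 fold change -0.34, SE 0.18, adjusted p = 0.5), and dKO 2 came close to ctl 2 and ctl 3. Ndufaf2, an assembly factor that binds a late intermediate of complex I, had 198, 233 and 205 in ctl and 179, 179 and 160 in dKO libraries (-0.29, SE 0.16, adjusted p = 0.516). Atp5j, of the peripheral stalk, is the last of the 6 OPC genes with the smallest p: it had 1368, 1166 and 1222 in ctl and 1550, 1667 and 1259 in dKO libraries, with dKO 3 inside the ctl range (0.25, SE 0.13, adjusted p = 0.497).

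Most genes at the ends of the OPC level order overlapped between the groups, unlike Sdhd. Cox6a1 had 3606, 3636 and 3597 counts in ctl and 4211, 4763 and 3100 in dKO libraries, so that its ctl libraries were nearly equal and its dKO libraries lay on both sides of them (log2 fold change 0.16, SE 0.16). Ndufa3 had 1004, 1000 and 886 in ctl and 949, 893 and 748 in dKO libraries (-0.16, SE 0.12), and Ndufaf4 had 275, 170 and 224 and 256, 289 and 289 (0.31, SE 0.19). Sdha had 4600, 4722 and 4728 in ctl and 5112, 5498 and 4571 in dKO libraries (0.11, SE 0.12). In Ndufaf4, unlike most of the genes, dKO 3 was among the highest libraries. Atp5md was level between the groups, at 1074, 838 and 926 in ctl and 1010, 1018 and 812 in dKO libraries. Atp5o (0.06, SE 0.17), Uqcr10 (0.05, SE 0.18) and Uqcrq (0.14, SE 0.13) also overlapped, each with dKO 2 as the highest and dKO 3 as the lowest of the 6 libraries.

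Neurons were compared in the same way, to see whether their transcripts differed in mice in which the deletion is directed at OPCs. Of the 93 oxidative phosphorylation genes in the neuron table, 92 were tested (Cox7b2 was not). With edgeR, 0 of the 92 had an unadjusted p under 0.05, against 9% of all genes tested, and with DESeq2 1 did. The number with an adjusted p under 0.05 was 0 with either tool, against 0% of all genes tested with edgeR, and the smallest adjusted p was 0.564. The estimate was higher in dKO for 80 of the 92, against 51.1% of all genes, and their log2 fold changes had a median of 0.11, against 0.01 over all genes. Every dKO library lay above every ctl library for 1 gene, against 7.5% of all genes, and below for 0, against 7.82%. The median standard error was 0.19, larger than in OPCs.

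The direction of the neuron genes rested on library dKO 1. The median over the 92 genes of the log2 difference from the ctl mean was 0.13, -0.04 and -0.07 in ctl and 0.39, -0.22 and 0.08 in dKO libraries. The dKO libraries spanned 0.62, and the group means differed by 0.08. Library dKO 1 was the highest of all 6 for 84 of the 92 genes, and dKO 2 was the lowest for 60. Without dKO 1, 27 genes were higher in dKO, against 49.7% of all genes, 0 had an unadjusted p under 0.05, against 8.29%, and the median log2 fold change was -0.05. Without dKO 2, 89 were higher, against 49.3% of all genes, 12 had an unadjusted p under 0.05, against 11%, and the median was 0.23. For neuron markers the median deviation was also highest in dKO 1 and lowest in dKO 2. It was -0.06, 0.15 and 0.10 in ctl and 0.78, -0.35 and 0.16 in dKO libraries, with an unadjusted p under 0.05 for 1 of 10. In ctl 1, where the oxidative phosphorylation genes were highest of the ctl libraries, the neuron markers were lowest. Their summed counts, 9459, 12535 and 12791 in ctl and 22049, 14434 and 12631 in dKO libraries, were highest in dKO 1 but higher in dKO 2 than in dKO 3. All 5 choroid plexus markers were higher in dKO at an unadjusted p under 0.05, against 4.96% of all genes, with sums of 78137 to 147840 in ctl and 136651 to 480844 in dKO, the last in dKO 1. Endothelial markers were lower at such a p for 3 of 10, against 4.04% of all genes, with sums of 352577 to 412939 and 184847 to 317131, the lowest again in dKO 1. With a library left out, 1 to 5 choroid plexus markers had such a p, 1 without dKO 1 or ctl 3, and 0 to 3 endothelial markers had one, 0 without ctl 1 or ctl 3. Oligodendrocyte and microglia markers were lower for 10 of 10 each, with median log2 fold changes of -0.91 and -0.71 and with 1 and 0 at such a p. These differences rested on ctl 1, without which the medians were -0.075 and 0.057. Without ctl 3, 10 of 10 oligodendrocyte markers had such a p, against 6.94% of all genes, and their median was -1.339. Without ctl 2, 5 of 10 microglia markers did, against 8.35%, and their median was -1.124. The oligodendrocyte sums were 64404, 37151 and 12221 in ctl and 18581, 19650 and 31029 in dKO libraries, and the microglia sums 32365, 7136 and 15012 and 6839, 17742 and 10134. Of 10 astrocyte markers 3 were lower and 1 higher at such a p, and their median of -0.46 became 0.075 without ctl 1. The part of these cells in the values of the oxidative phosphorylation genes was not tested.

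All complexes had a positive median in neurons, and 4 of the 5 had a negative one without dKO 1. The median log2 fold change was 0.08 in complex I (37 of 45 higher in dKO), 0.08 in complex II (4 of 4), 0.19 in complex III (7 of 8), 0.16 in complex IV (16 of 18) and 0.18 in complex V (16 of 17). Without dKO 1 the medians of complexes I, II, IV and V were -0.08, -0.03, -0.03 and -0.03, and that of complex III was 0.02. Within complex I the 7 core subunits were all higher (median 0.07), 26 of 30 accessory subunits were higher (0.11) and the 8 assembly factors were evenly split (4 higher, median -0.01). In OPCs the assembly factors had the highest median of the 3 classes of complex I, and in neurons the lowest; the difference between the cell types was not tested.

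The deviations of some libraries differed with transcript length. In neurons the median deviation of library dKO 1 was 0.51 over the 30 genes with the shortest transcripts (effective length of 89 to 316 bases), 0.38 over the middle 31 (321 to 703 bases) and 0.34 over the longest 31 (711 to 3394 bases). Library dKO 2 had -0.28, -0.21 and -0.19 in the same order. In OPCs dKO 3 had -0.21, -0.12 and -0.03, while dKO 2 was even at 0.22, 0.25 and 0.22. The deviation was thus largest for the shortest transcripts in 3 of these 4 libraries. The other dKO libraries had 0.13, 0.16 and 0.14 (dKO 1 in OPCs) and 0.13, 0.08 and 0.07 (dKO 3 in neurons). In OPCs 20 of the 30 shortest, 24 of the 31 middle and 30 of the 31 longest genes were higher in dKO. In neurons these counts were 25, 29 and 26. Of all genes tested, 50.8% in OPCs and 51.1% in neurons were higher.

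The neuron gene with the smallest p was Atp5g1, a gene for subunit c, which forms the rotating ring of the ATP synthase. It had 2395, 1987 and 1834 counts in ctl and 4396, 1975 and 2876 in dKO libraries. Libraries dKO 1 and dKO 3 lay above all ctl libraries and dKO 2 among them. The log2 fold change was 0.57 (SE 0.27), with an unadjusted p of 0.0649 and an adjusted p of 0.564 in edgeR's quasi-likelihood test. Atp5g3, a further gene for the same subunit, had 3864, 3496 and 3129 in ctl and 5287, 3296 and 4006 in dKO libraries (0.26, SE 0.19, adjusted p = 0.71). Ndufa12, an accessory subunit of complex I, had 1591, 1410 and 1415 in ctl and 2195, 1279 and 2049 in dKO libraries (0.32, SE 0.21, adjusted p = 0.674). In each of these 3 genes dKO 2 lay below the middle one of the ctl libraries. Ndufa11, a membrane subunit of complex I, had 975, 786 and 807 in ctl and 1538, 779 and 961 in dKO libraries (0.35, SE 0.25, adjusted p = 0.697), with dKO 1 alone above the ctl range.

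A pair of low genes completed the 6 neuron genes with the smallest p. Cox6b2, the testis isoform of subunit 6b, had 115, 92.4 and 60 counts in ctl and 179, 82.4 and 148 in dKO libraries (log2 fold change 0.62, SE 0.38, adjusted p = 0.668). Cox8b, the heart and muscle isoform of subunit 8, had 7.11, 17.5 and 10.7 in ctl and 41.1, 9.47 and 21.5 in dKO libraries (1.02, SE 0.70, adjusted p = 0.694). Both overlapped between groups. The 1 neuron gene with separate groups was Atp5b, the catalytic beta subunit of the F1 head, at 14685, 14869 and 16296 in ctl and 17014, 16583 and 16780 in dKO libraries. Its separation was narrow, with a log2 fold change of 0.14 (SE 0.14, adjusted p = 0.796).

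At the ends of the neuron level order, Cox6a1 had 5087, 5453 and 4756 counts in ctl and 6371, 4209 and 4925 in dKO libraries (log2 fold change 0.02, SE 0.18). Ndufb9 had 3563, 3545 and 3503 in ctl and 4382, 2890 and 3445 in dKO libraries (0.01, SE 0.17). Uqcrb had 3548, 2830 and 2888 in ctl and 3729, 2229 and 3026 in dKO libraries (-0.04, SE 0.20). These abundant genes thus showed the spread of the dKO libraries without a difference of the means. Sdha was level, with 5390, 5273 and 5943 in ctl and 5363, 5467 and 5780 in dKO libraries, and it did not share the high value of dKO 1. Atp5j (-0.01, SE 0.17), Atp5d (0.14, SE 0.19), Sdhc (0.11, SE 0.18), Uqcrq (0.30, SE 0.22) and Ndufaf4 (0.09, SE 0.15) overlapped between the groups as well.

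Several subunits have paralogues with known tissue preferences, so the share of each paralogue within its family was set per length. In 5 families the common gene made up most of the family in both cell types, and the Cox7a and c subunit families were divided between several genes. Cox4i1 made up 99 ± 0.12% (SD, n = 3) of the Cox4 family in ctl OPCs and 99.2 ± 0.37% in ctl neurons, Cox6a1 99.3 ± 0.25% and 99.8 ± 0.02%, Cox8a 97 ± 1.2% and 99.3 ± 0.3%, and Ndufa4 96.3 ± 0.27% and 98.2 ± 0.99%. Cox6b1 made up 86.8 ± 3.03% of its family in ctl OPCs, with the remaining 13.2% from Cox6b2, and 97.8 ± 0.56% in ctl neurons. Cox7b2 had 3 reads over the 6 OPC libraries and 5 over the 6 neuron libraries, and Cox7b made up nearly all of that family. The shares of these 5 families and of Cox7b overlapped between dKO and ctl in both cell types.

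**Figure D4:**
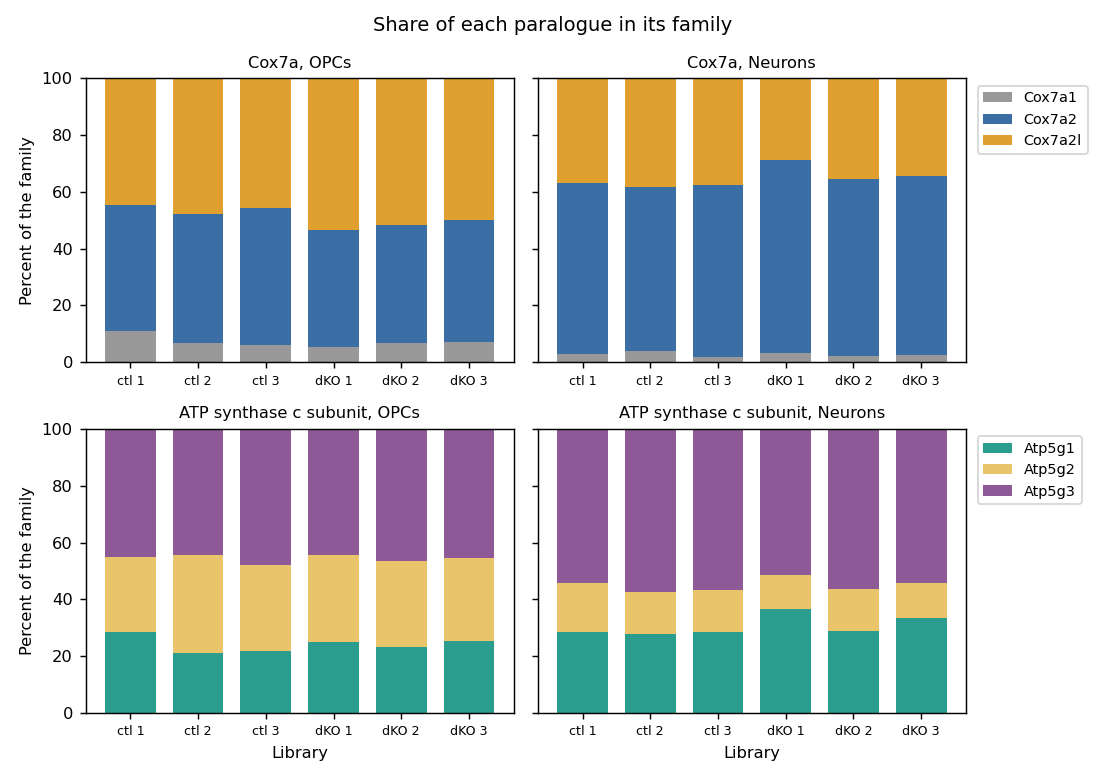
Percent of each family contributed by each paralogue, from levels per transcript length, in each of the 12 libraries, for the Cox7a family (upper panels) and the ATP synthase c subunit (lower panels). The Cox7a2l share is 49.8 to 53.5% in dKO OPCs and 44.9 to 47.7% in ctl OPCs, while in neurons it is 28.8 to 35.4% in dKO and 36.8 to 38.3% in ctl.

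The Cox7a family holds Cox7a1 of heart and muscle, the common Cox7a2, and Cox7a2l. In OPCs the Cox7a2l share was 44.9, 47.7 and 45.8% in ctl and 53.5, 51.7 and 49.8% in dKO libraries, and that of Cox7a2 was 44.2, 45.7 and 48.2% in ctl and 41.2, 41.5 and 43% in dKO libraries. In neurons the Cox7a2l share was 36.8, 38.3 and 37.7% in ctl and 28.8, 35.4 and 34.6% in dKO libraries, and that of Cox7a2 was 60.3, 57.8 and 60.5% in ctl and 68.2, 62.6 and 63.1% in dKO libraries. The groups did not overlap in any of these 4 cases, and the direction in neurons was opposite to that in OPCs. The size in neurons rested on dKO 1: the Cox7a2l difference was -4.71 percentage points with all libraries and -2.65 without it, and that of Cox7a2 was 5.11 and 3.31. The plain ratio of Cox7a2l to Cox7a2 counts, which needs no length, was 1.66, 1.71 and 1.55 in ctl and 2.12, 2.03 and 1.89 in dKO OPCs, and 0.997, 1.08 and 1.02 in ctl and 0.689, 0.923 and 0.895 in dKO neurons. As single genes, neither passed the adjusted test: in OPCs Cox7a2 had 983, 861 and 1075 counts in ctl and 1085, 1145 and 824 in dKO libraries (log2 fold change 0.07, SE 0.15), and in neurons Cox7a2 had 2091, 1843 and 1995 and 3175, 1929 and 1991 (0.26, SE 0.21), while neuronal Cox7a2l had 2084, 1997 and 2033 and 2187, 1781 and 1782 (-0.09, SE 0.14). An exact two-sided permutation test of 3 libraries against 3 cannot give a p under 0.1. The shares could not reach 0.05 by that test, and no other test of them was run. In each cell type 16 shares were compared.

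Subunit c is made from 3 genes whose mature proteins are identical. In ctl OPCs Atp5g1, Atp5g2 and Atp5g3 made up 23.7 ± 4.1%, 30.5 ± 4.1% and 45.7 ± 1.79% of the family, and in ctl neurons 28.2 ± 0.45%, 15.7 ± 1.27% and 56.1 ± 1.63%. In neurons the Atp5g1 share was 28.6, 27.7 and 28.3% in ctl and 36.4, 28.8 and 33.3% in dKO libraries, above ctl in every dKO library but only just in dKO 2. The Atp5g2 share was 17.2, 15 and 15% in ctl and 12.1, 14.9 and 12.3% in dKO libraries, and dKO 2 again lay next to the ctl libraries. In OPCs all 3 shares overlapped between the groups. Of the 16 shares compared in each cell type, the groups did not overlap for 2 in OPCs and 4 in neurons, and shares of a family are not independent of each other. Among the counts of all genes tested, 17% in OPCs and 15.3% in neurons had groups that did not overlap. Without dKO 1 the Atp5g1 share in neurons was higher in dKO by 2.8 percentage points, against 4.59 with all libraries. Reads that fit several of the 3 genes may have been split or dropped in counting, which could not be checked here.

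The minor paralogues were low and moved with single libraries. Cox4i2 in neurons had 72.1, 64.2 and 22.5 counts in ctl and 54.9, 66.3 and 44 in dKO libraries, and Ndufa4l2, the hypoxia-inducible relative of Ndufa4, had 178, 200 and 54.6 in ctl and 162, 216 and 143 in dKO libraries. In both, ctl 3 was the lowest of the 6 libraries, and it also held the lowest sum of 6 mural cell markers, 9634 against 13580 to 22674 in the others. In OPCs Ndufa4l2 had 172, 112 and 155 in ctl and 227, 108 and 178 in dKO libraries, lowest in dKO 2, where the mural sum was also lowest. Cox4i2 in OPCs went the other way, with 67.1 counts in dKO 2 against 45.3 to 59.5 in ctl. Cox7a1 had 63, 32.2 and 34.5 in ctl and 36.2, 48.1 and 35.3 in dKO OPC libraries, and 26.4, 32.1 and 15 and 36.2, 16.1 and 19.5 in neurons. Cox6a2 had 19.2 to 57.2 counts in OPCs and 9.8 to 21.5 in neurons. The part of mural cells in these values was not tested.

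Over both cell types, 64 of the 92 genes tested in both were higher in dKO in both, 10 in OPCs alone, 16 in neurons alone, and 2 in neither, Cox7a1 and Ndufb4. Of all genes tested in both cell types, 26.6% were higher in both. The count of 64 rested on single libraries: without neuron dKO 1 it was 23 of 92, against 25.6% of all genes, and without OPC dKO 2 it was 46, against 24.1%. No gene had separate groups in both cell types. Whether fold changes differ by cell type was not tested, given the different counting of the tables.

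The subunits encoded in mitochondrial DNA were in the OPC table only, and neurons were not analysed here for them. In dKO OPCs all 13 were higher (median log2 fold change 0.39, against 0.10 for the nuclear genes), where 50.8% of all genes were higher. With edgeR 1 of 13 had an unadjusted p under 0.05, against 11.5% of all genes, and 0 an adjusted one. Their library medians were 0.10, -0.24 and 0.12 in ctl and 0.34, 0.69 and 0.01 in dKO libraries, so dKO 2 was highest and dKO 3 lowest of the dKO libraries, as for the nuclear genes. The 1 gene was mt-Atp6, subunit a of the ATP synthase, with 756, 524 and 706 counts in ctl and 1010, 798 and 921 in dKO libraries (0.46, SE 0.16, adjusted p = 0.355), all dKO libraries above ctl. The counts were very uneven between genes: mt-Co1, the catalytic subunit of complex IV, had 230942 to 458811, whereas mt-Atp8 had 13.1, 15.5 and 19.8 in ctl and 30.3, 71.7 and 15 in dKO libraries (1.28, SE 0.57, adjusted p = 0.44). mt-Nd2, of complex I, had 66688, 50005 and 61895 in ctl and 78148, 95055 and 60129 in dKO libraries, with dKO 3 inside the ctl range. Copies of mitochondrial DNA in the nuclear genome make such reads uncertain, and the libraries were poly(A)-selected.

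**Figure D5:**
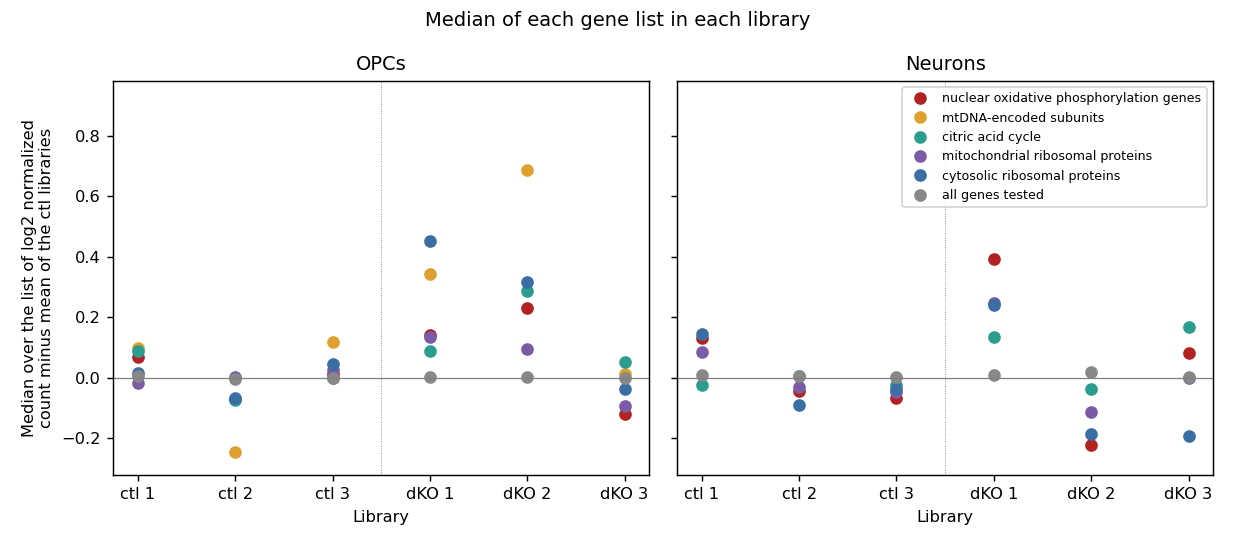
Median over each gene list of the log2 normalised count minus its mean over the ctl libraries, by library, for OPCs and neurons. The nuclear oxidative phosphorylation genes lie between -0.12 and 0.23 in OPCs and between -0.22 and 0.39 in neurons, and in OPCs the mtDNA-encoded subunits reach 0.69 in dKO 2, while the median of all genes tested stays near 0.

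Further genes of the pathway, listed by hand, were read from the same fits. Of 17 subunits and carriers outside the symbol rule (cytochrome c, enzymes of ubiquinone synthesis and others), 12 were higher in dKO OPCs (median 0.02) with 0 at an unadjusted p under 0.05, against 11.5% of all genes, and 11 were higher in dKO neurons (median 0.09). In neurons Coq7, a hydroxylase of ubiquinone synthesis, had 430, 408 and 346 counts in ctl and 726, 405 and 617 in dKO libraries (0.56, SE 0.23, adjusted p = 0.524). Gpd2, the mitochondrial glycerol phosphate dehydrogenase, had 3762, 3823 and 3510 in ctl and 2153, 3232 and 3032 in dKO neurons, with all dKO libraries below ctl (-0.40, SE 0.17, adjusted p = 0.554). These were the 2 of 17 neuron genes of that list with an unadjusted p under 0.05, near the 9% of all genes.

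Of the assembly factors outside the rule, 26 of 41 were higher in dKO OPCs (median 0.07) and 22 of 42 in dKO neurons (0.04). Coa5, an assembly factor of complex IV, alone had an unadjusted p under 0.05 (1 of 41 in OPCs, against 11.5% of all genes, and 0 of 42 in neurons, against 9%), with 862, 791 and 884 counts in ctl and 963, 1119 and 1002 in dKO OPCs (0.28, SE 0.11, adjusted p = 0.38). Of 21 genes of mitochondrial biogenesis and transcription, 10 were higher in OPCs and 14 in neurons, with medians of -0.03 and 0.08 and 0 at such a p in either. Ppargc1a (PGC-1alpha), the coactivator of NRF1, had 354, 193 and 301 counts in ctl and 309, 472 and 404 in dKO OPCs (0.48, SE 0.24, adjusted p = 0.49). In neurons it had 178, 144 and 77.1 in ctl and 194, 132 and 242 in dKO libraries, and the groups overlapped in both cell types.

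The citric acid cycle, which feeds electrons to complexes I and II, had 17 of 18 genes higher in dKO OPCs and 14 of 18 in dKO neurons, with medians of 0.13 and 0.12. Suclg2, a subunit of succinyl-CoA ligase, had 457, 329 and 353 counts in ctl and 469, 721 and 613 in dKO OPCs (0.66, SE 0.19, adjusted p = 0.31). Idh2, the mitochondrial NADP-dependent isocitrate dehydrogenase, had 1255, 1283 and 1315 in ctl and 1837, 1560 and 1570 in dKO neurons (0.37, SE 0.13, adjusted p = 0.521), and Dlst, of the oxoglutarate dehydrogenase complex, had 965, 1203 and 951 and 1235, 1324 and 1360 (0.33, SE 0.14, adjusted p = 0.553). In these 3 genes all dKO libraries lay above all ctl libraries, and they were the only genes of the list with an unadjusted p under 0.05 in either cell type, against 11.5% and 9% of all genes.

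Ribosomal protein genes, whose transcripts are short and abundant like those of the complexes, were set beside them. Of 77 mitochondrial ribosomal proteins, 47 were higher in dKO OPCs (median 0.04), and of 78 in neurons, 46 (0.04). Of 79 cytosolic ribosomal proteins, 71 were higher in dKO OPCs, 12 of them at an unadjusted p under 0.05, against 6.27% of all genes, and 1 was lower at such a p, against 5.27%, with a median of 0.24 and library medians of 0.02, -0.06 and 0.05 in ctl and 0.45, 0.31 and -0.04 in dKO libraries. In neurons 25 of 77 were higher (median -0.03), with library medians of 0.15, -0.09 and -0.04 in ctl and 0.24, -0.19 and -0.19 in dKO libraries. As for the complexes, dKO 3 was the lowest of the dKO libraries in OPCs and dKO 1 the highest in neurons. An adjusted p under 0.05 was found for 0 genes of any of these lists in either cell type with edgeR.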

How the data were processed

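The OPC table deposited by the authors held unnormalised counts of reads on Ensembl genes, and their neuron table, whose dKO columns are named cKO, estimated counts on RefSeq transcripts. The labels name a TruSeq kit (v2), of a kind that does not mark strand, and the methods HISAT2 2.0.5, GRCm38 and featureCounts 1.5.0-p3, while the submitters' processing notes name mm39; how the estimated counts were made is not given in the sources used here. They were summed per gene and rounded. The FPKM values the authors deposited served only to derive effective transcript lengths (neuron estimated counts over FPKM, all 6 libraries) and to compare orders. Columns with the authors' own comparison (log2 fold change, p and adjusted p) were left aside, as were 18 per-sample columns of further normalised values.

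Genes with a mean TMM-normalised count of at least 10 were tested in each cell type with edgeR 4.0.16 (quasi-likelihood test, genotype only, Benjamini-Hochberg over all genes, R 4.3.3). Genes and lists were chosen with earlier results of these data known. Named were the highest and lowest gene of each complex by level, the 6 smallest p, the paralogue families, genes separate in both cell types, and up to 3 genes per list; genes with separate groups, Atp5b, Ndufb1 and Ndufaf2 among them, and the targeted genes were chosen later, with their values known. Alternatives were DESeq2 1.42.0, its size factors, library totals, no filter, a minimum of 50, a replicate block, no rounding, each library left out and, chosen after seeing the data, TMM factors from all genes. The code was tested on simulated data.

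No library repeated another (chi-square per gene of at least 15.9 within a group), and counts varied between libraries by 20.5% in OPCs and 27.7% in neurons (biological coefficient of variation). Of the neuron gene identifiers, 17794 were matched to symbols.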

Additional observations from a re-analysis of the deposited data

Results flagged for a closer look

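The shares of Cox7a2 and Cox7a2l in the Cox7a family were flagged by a rule: separate groups in both cell types, in opposite directions. The separation and the opposite directions are therefore how they were chosen. In each cell type 16 shares were compared. Among the counts of all genes tested, 17% in OPCs and 15.3% in neurons had groups that did not overlap. In OPCs the Cox7a2 share was lower in dKO by a mean difference of -4.1 percentage points and the Cox7a2l share higher by 5.55 points, with every dKO library on one side of every ctl library. In neurons the Cox7a2 share was higher in dKO by 5.11 points and the Cox7a2l share differed by -4.71 points, again with every dKO library on one side of the ctl libraries. Without dKO 1 the neuron differences were 3.31 and -2.65 points. Whether the cell types differ was not tested, given the different counting of their tables. Both shares come from the same family, so these 4 differences are not 4 separate observations.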

How the results depend on the processing

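The counts of adjusted p under 0.05 were 0 in every alternative in both cell types. The number of OPC genes with an unadjusted p under 0.05 (1) became 2 with library totals (11.4% of all genes), 3 without the filter (9.15%), 0 with a minimum of 50 (11.9%) and 3 with TMM factors from all genes (11.4%), and ran from 0 to 8 (6.34% to 13.3%) with each library left out; in neurons (0) it became 1 with DESeq2 (10.7%) and 1 with the replicate block (8.95%), and ran from 0 to 12 (5.45% to 11%). Replicate numbers did not pair the libraries (correlations of same-numbered libraries of -0.108, 0.147 and 0.113 in OPCs and 0.166, -0.0758 and -0.0759 in neurons), and the block changed no other call. Genes with separate groups were 5 in OPCs, with 6 to 50 when a library was left out, and 1 in neurons, with 2 under library totals (15.4% of all genes) and 1 to 38 when a library was left out. Groups of 2 and 3 libraries separate more often, in 23.2% to 30.5% of all genes in OPCs and 22.8% to 29.5% in neurons, and 29.2% and 29.5% in the fits that gave 50 and 38. The neuron genes higher in dKO ran from 27 to 89 and their median from -0.047 to 0.233, below 0 without dKO 1.

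With single libraries left out, the median of complex I in OPCs ran from -0.00037 to 0.137, and in neurons the medians ran from -0.079 to 0.198 in complex I, -0.034 to 0.210 in complex II, -0.033 to 0.307 in complex IV and -0.032 to 0.312 in complex V. OPC log2 fold changes that changed sign ran from -0.165 to 0.218 (Uqcr10), -0.080 to 0.101 (Atp5md), -0.082 to 0.204 (Atp5o), -0.276 to 0.160 (Cox6b2), -0.293 to 0.258 (Cox7a1), -0.028 to 0.185 (Cox7a2), -1.014 to 0.093 (Cox8b) and -0.041 to 0.463 (Ndufa4l2). Those of neurons ran from -0.159 to 0.147 (Ndufb9), -0.039 to 0.268 (Sdhc), -0.033 to 0.054 (Sdha), -0.233 to 0.130 (Uqcrb), -0.159 to 0.148 (Cox6a1), -0.343 to 0.306 (Cox6a2), -0.122 to 0.141 (Atp5j), -0.078 to 0.248 (Atp5d), -0.059 to 0.317 (Cox4i1), -0.307 to 0.339 (Cox4i2), -0.188 to 0.188 (Cox6b1), -0.464 to 0.206 (Cox7a1), -0.012 to 0.386 (Cox7a2), -0.021 to 0.508 (Cox7b), -0.033 to 0.361 (Cox8a), -0.123 to 0.578 (Ndufa4l2) and -0.155 to 0.212 (Atp5g2). With all libraries, Atp5md in OPCs came to -0.0013 with DESeq2, -0.0011 with its size factors, -0.017 with library totals and -0.0044 with a minimum of 50. In neurons Ndufb9 came to -0.0067 with the block, Sdha to -0.0052 with DESeq2 and its size factors and to -0.0028 without the filter and with TMM factors from all genes, and with library totals Uqcrb came to 0.0027, Atp5j to 0.039 and Cox7a1 to 0.0078. The cause of these changes was not tested. With 3 libraries a group and a median standard error of 0.14 or 0.19 on the log2 scale, changes of the size of these medians cannot be resolved for single genes.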

Other observations

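The symbol pattern of the complexes also matched 11 pseudogenes in the OPC table, of which 4 passed the filter. Ndufa12-ps had a mean of 192 normalised counts in ctl and 197 in dKO OPCs, beside 320 ± 125 and 424 ± 192 (SD, n = 3) for its parent gene Ndufa12, whose dKO libraries had 510, 558 and 204 counts, so reads of this pair are uncertain. Ndufab1-ps had 78.4 and 74.5, Atp5pb-ps 24.3 and 25.7, and Cox7c-ps1 22.4 and 16.1. Cox5b-ps, listed as protein-coding, had 115, 137 and 138 in ctl and 111, 191 and 113 in dKO OPCs.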
